A study of Mus musculus with 9 samples.

Results

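Kinesins are a family of microtubule motors. Their transcripts were followed here through pools of mouse eggs at metaphase II (MII), where oocytes arrest at the second meiotic division. The members were all protein-coding genes whose symbol begins with Kif followed by a digit or the letter c. That rule found 42 genes of the 30153 in the deposited tables, of which 18483 are protein-coding. It also took in Kif1bp, which encodes a protein that binds kinesins and is no motor. It left out Cenpe, the kinesin of the centromere, because its symbol has another form.

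The oocytes came from 4-week-old females of mixed genetic background that carried Sycp3CreERT2/+, a tamoxifen-inducible Cre expressed under Sycp3, a gene of the meiotic chromosome axis, and the Rosa26nT-nG/+ reporter. The reporter marks nuclei red with tdTomato, and Cre recombination switches them to green. All 3 groups share both alleles and the same superovulation (5 IU PMSG, then 5 IU hCG 48 h later, with collection 13 h after hCG and cumulus cells removed with hyaluronidase). Oocytes were sorted by eye for their colour as GFP High, GFP Low or RFP, and pooled, with 3 libraries per group and 9 in all. The pools held 15 to 16 oocytes in GFP High, 49 to 57 in the GFP Low pools and 87 to 100 in the RFP pools, so pool size and group cannot be told apart. The time of tamoxifen treatment is not given in the sources used here.

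A kinesin uses ATP to step along a microtubule or to take its end apart. The MII egg holds a spindle built without centrioles, and kinesins slide its microtubules, move chromosomes, trim microtubule ends and later drive the cleavage that expels the polar body. Other kinesins haul vesicles, RNA and organelles, and a few work in cilia, which the egg lacks. An MII egg is almost silent in transcription, so the transcripts in it were mostly made while the oocyte grew. By role, 15 members act on the spindle or in cell division, 15 in transport, 6 in cilia or at the centriole and 5 elsewhere.

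Most promoters of the spindle kinesins hold a common short stretch of letters, shown here because the choice of members by name did not use it. The motif TTTGAA is the core of the cell cycle genes homology region, an element known from promoters of genes expressed in dividing cells. RefSeq promoters of GRCm38.p6, each running from 250 bases before to 50 bases after an annotated start site, matched 32 of the 42 members by symbol. Searched on both strands, the motif lay in 11 of the 14 spindle genes with a promoter (78.6%), against 20.2% of 27025 genes. It lay in 1 of 10 transport genes, Kif1a, whose transcript was close to absent from these eggs. Among the cilium genes it lay in 1 of 5, Kif27, and among the other genes in 1 of 3, Kif26b. CCAAT, a second motif searched, lay in 9 of 14 spindle, 3 of 10 transport, 3 of 5 cilium and 1 of 3 other genes. Over all genes with a promoter, CCAAT lay in 41.1%. The following stretches run from 120 bases before to 30 bases after the start site, 5′ to 3′ on the gene's own strand. TTTGAA on either strand is in capitals. They belong to the 4 most abundant spindle kinesins with a TTTGAA match inside that stretch, so a match in each was fixed by the choice. Kif14, more abundant than Kif20b, was passed over because its match lies at -228 from the start site. Kif17, the most abundant transport kinesin, was taken without that condition.
Kif23: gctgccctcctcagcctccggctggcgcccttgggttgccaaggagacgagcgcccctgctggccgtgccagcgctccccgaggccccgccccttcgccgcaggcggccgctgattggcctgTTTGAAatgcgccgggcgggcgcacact
Kif4: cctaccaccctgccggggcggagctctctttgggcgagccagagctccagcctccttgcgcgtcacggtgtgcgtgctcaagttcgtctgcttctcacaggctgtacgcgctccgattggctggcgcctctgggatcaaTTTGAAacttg
Kif2c: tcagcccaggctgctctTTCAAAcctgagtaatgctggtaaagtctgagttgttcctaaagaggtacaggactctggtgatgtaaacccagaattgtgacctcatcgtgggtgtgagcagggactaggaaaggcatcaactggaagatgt
Kif20b: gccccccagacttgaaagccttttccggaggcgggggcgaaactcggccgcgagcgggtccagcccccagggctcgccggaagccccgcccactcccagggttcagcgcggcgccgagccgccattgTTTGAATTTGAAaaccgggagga
Kif17: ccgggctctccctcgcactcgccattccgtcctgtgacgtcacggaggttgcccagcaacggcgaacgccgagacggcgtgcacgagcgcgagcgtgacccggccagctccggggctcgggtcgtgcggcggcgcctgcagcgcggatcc
These lie at chr9:61946770-61946919 on the minus strand (Kif23), chrX:100625945-100626094 on the plus strand (Kif4), chr4:117178743-117178892 on the minus strand (Kif2c), chr19:34922238-34922387 on the plus strand (Kif20b) and chr4:138262131-138262280 on the plus strand (Kif17). Kif20b holds TTTGAA as 2 adjoining copies. No match to TTTGAA stands in the Kif17 stretch. A match is a description of letters and not a measured binding site.

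In most spindle genes TTTGAA stood close to the start site. Within 30 bases of the start it was found in 9 of 14 spindle genes (64.3%), 0 of 10 transport genes and 3.72% of all genes. It was also found there in 0 of 5 cilium genes and 1 of 3 other genes, Kif26b. The window was set after the positions had been seen. The start sites come from RefSeq and not from these eggs. They lay within 150 bases of the 5′ end that the deposited tables give for 27 of the 32 matched members. For Kif17 the RefSeq start lies 11816 bases downstream of that end, for Kif2c 3867, for Kif14 1505 and for Kif4 328 bases, so the transcripts counted here may start elsewhere. Kif27 is the fifth such member, at 4175 bases. Kif1a has 2 RefSeq starts, and its match belongs to the one 19471 bases downstream of that end.

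**Figure D1:**
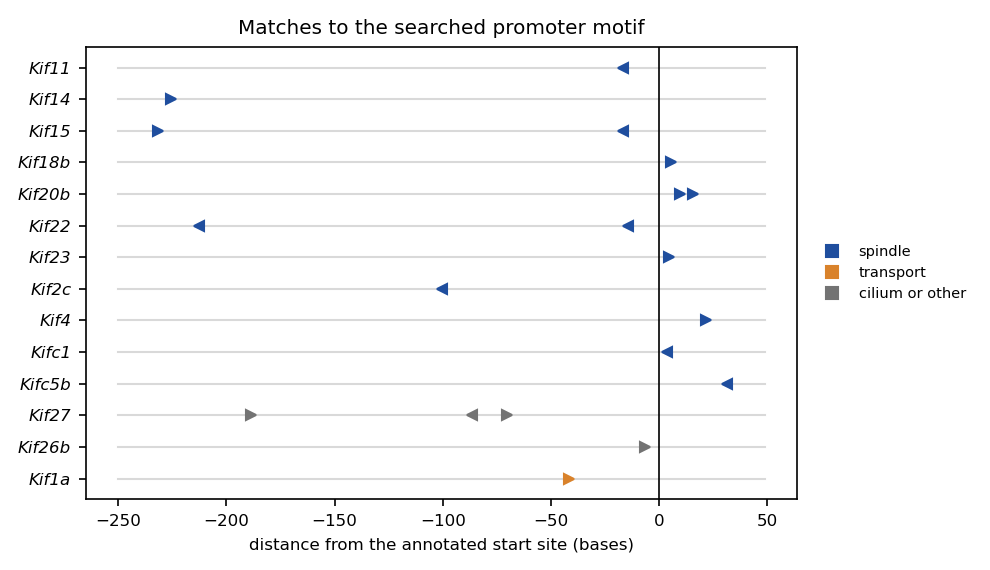
Position of each TTTGAA match (triangles, pointing right for the gene's strand and left for the other strand) in bases from the RefSeq start site, for the 14 members with a match among the 32 with a promoter. Most spindle genes (blue) have a match beside the start, and Kif1a is the transport gene (orange) with one.

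Another pair of sequences bears on how far the counts can be trusted. Kifc1 encodes a minus-end motor that bundles and focuses the spindle, and Kifc5b is a near-identical copy. Their coding sequences of 2025 and 2019 bases were 98.4% identical, with 32 mismatches and an identical run of up to 268 bases. The following 60 bases from near the start of the coding sequence (positions 24 to 83 in Kifc1, 21 to 80 in Kifc5b) hold 11 of those mismatches, in capitals.
Kifc1: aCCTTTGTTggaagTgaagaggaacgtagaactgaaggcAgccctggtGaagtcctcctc
Kifc5b: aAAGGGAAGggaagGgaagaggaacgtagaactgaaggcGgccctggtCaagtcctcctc
Of all 100-base windows of the transcripts, 23.7% in Kifc1 and 21.2% in Kifc5b also occur in the other gene, so the split of reads between them is uncertain. Of the other members, Kif28 shared 1.63% with its neighbour Ahctf1, and 39 shared none with any gene.

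The poly-A RNA of the egg held many kinesin transcripts, with spindle motors the higher class. Tail length was not measured, so a level here does not separate transcript amount from capture by the poly-A tail. Of the 42 members, 33 had a mean of at least 1 CPM (read counts scaled to library size by TMM, the trimmed mean of M-values): 14 of 15 spindle, 11 of 15 transport, 3 of 6 cilium and 4 of 5 other genes, plus Kif1bp. RPKM, the scale used to set genes against each other, is CPM per kilobase of the deposited gene length. On it the median level was 24.6 for spindle genes, 4.36 for transport genes, 0.435 for cilium genes and 0.555 for the others. The 42 genes took 0.427% to 0.470% of all counts in a library, from totals of 19381677 to 27746256 counts. Oocyte markers stood above 3 counts for 12 of 12 genes in every library, with a summed level of 11931 to 13310 CPM for GFP High, 11277 to 11997 for GFP Low and 11366 to 11845 for RFP. In this sum GFP High lay above RFP without overlap, the direction that Kif17 also took. Most of the markers shared it, but not all. By group mean, Gdf9 (1743 against 1526 CPM), Npm2 (2070 against 1778) and Oosp1 (1391 against 1098) were higher in GFP High than in RFP. So were Zp1 (226 against 209 CPM), Zp2 (244 against 226) and Zp3 (287 against 243). Mos (84.2 against 69.9), Dppa3 (1997 against 1876) and Ooep (719 against 620) were higher as well. Bmp15 (823 against 869) and Padi6 (1984 against 2001) were lower, and Nlrp5 was level at 1061. The part of these markers in the Kif17 difference was not tested. Cumulus and granulosa markers summed to 8.95 to 59.9 CPM in the GFP High pools, 13.4 to 54.8 in the GFP Low pools and 16.7 to 75.5 in the RFP pools, which overlap.

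The highest level per kilobase belonged to Kif17, at 119.7 RPKM over the 9 libraries, followed by Kif23 at 106.7. Kif17 stood above Kif23 in 6 of the 9 libraries, so the order of the pair is not the same in every library. That order also rests on the deposited gene lengths, 4582 bases for Kif17 and 7901 for Kif23. Their longest coding transcripts in GENCODE M21 have 3453 and 3398 bases. In CPM, not divided by length, Kif23 (768 to 970) stood above Kif17 (458 to 693). Cenpe, outside the name rule, was at 104 RPKM. Below them came Kif4, Kif2c and Kif14 at 54.6, 53.5 and 53.3 RPKM, which exchanged places between libraries: Kif4 stood above Kif2c in 6 of 9 and Kif2c above Kif14 in 2 of 9. Kif14 stood above Kif20b (40.8 RPKM) in 9 of 9 libraries, and Kif20b above Kif3a (36.3 RPKM) in 9 of 9. Kifc1, Kif22, Kif20a, Kif2a and Kif11 followed between 26.6 and 23.4 RPKM.

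**Figure D2:**
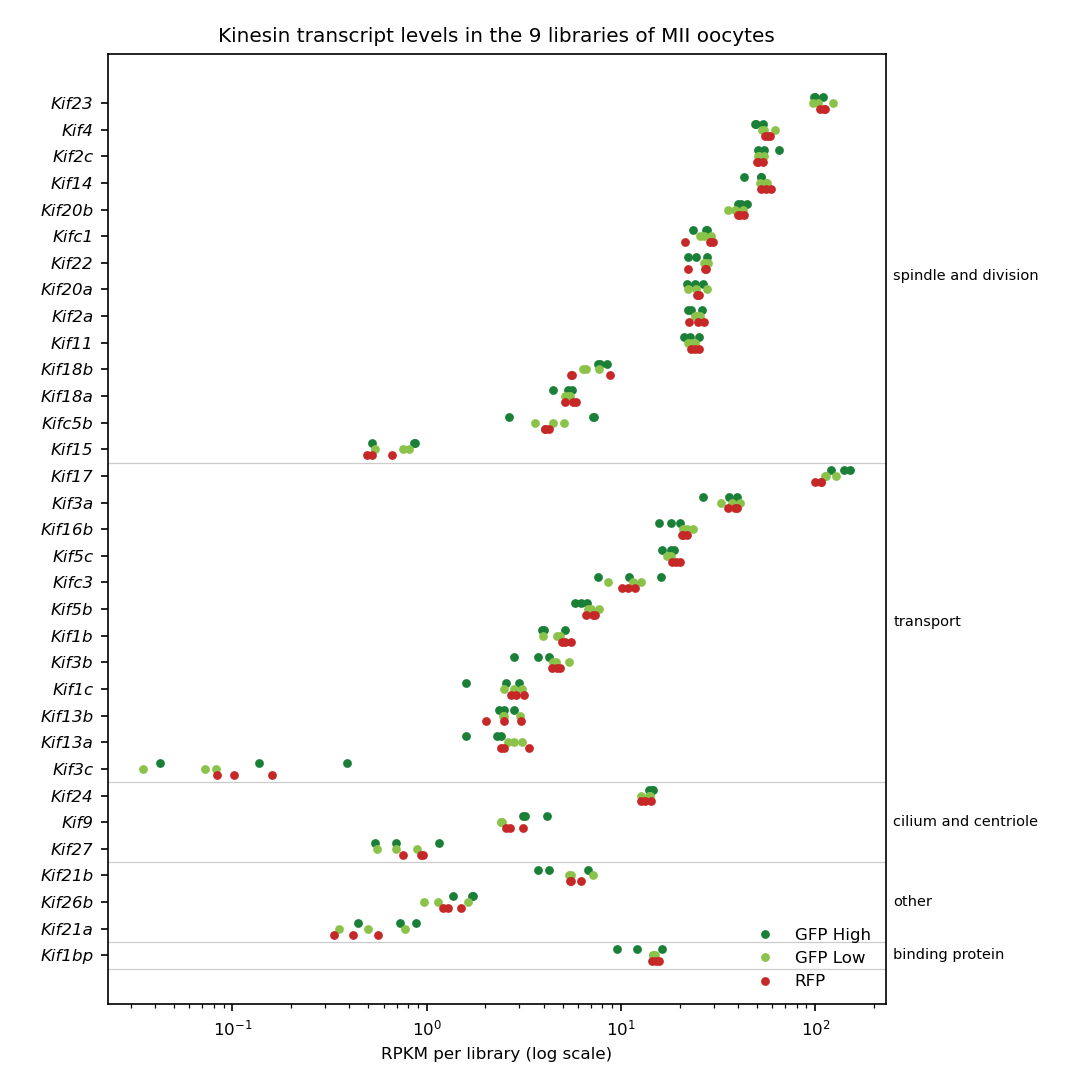
RPKM of each of the 33 members above 3 counts in every library, in each of the 9 libraries (log axis), grouped by role and ordered by mean level, with GFP High, GFP Low and RFP in dark green, light green and red. Most spindle genes crowd between 20 and 120 RPKM, and on this scale, set over all 9 libraries, the colours overlap between every pair of groups for 23 of the 33 members and lie apart between some pair for 10.

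No spindle kinesin passed the test over all genes in any of the 3 comparisons. Kif23 (chr9:61915905-61946774), a motor of the central spindle that is needed for cytokinesis, was at 868, 779 and 790.2 CPM in the GFP High libraries, 970.4, 819 and 768 in the GFP Low pools and 872, 885 and 832 in the RFP pools. The highest value and the lowest both came from GFP Low, and the groups overlapped. The fitted log2 fold change of GFP High against RFP was -0.08 (SE 0.08, 95% interval -0.26 to 0.09), and -0.14 without GFP High library 1. In a pool, fewer oocytes holding a transcript and less of it per oocyte cannot be told apart.

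Kif4, a chromosome-borne motor that organises the central spindle, was at 297, 270.3 and 271 CPM in the GFP High pools, 341, 299 and 292 in the GFP Low pools and 316, 303 and 322 in the RFP pools. All 3 GFP High libraries lay below all 3 RFP libraries, but not below all GFP Low libraries. The log2 difference between GFP High and RFP was -0.16 (SE 0.09), with an adjusted p of 0.997 by edgeR's quasi-likelihood test. The gene Pdzd11 on the opposite strand overlaps 832 bases of the Kif4 locus and was at 25.4 CPM.

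Kif2c, which takes microtubule ends apart at the centromere, was at 237, 283 and 221 CPM in the GFP High pools, 237, 220.2 and 225 in the GFP Low pools and 222, 219 and 236 in the RFP pools. Kif14, which acts in cytokinesis, was at 546, 445 and 546 CPM in the GFP High pools, 586, 579.9 and 536 in the GFP Low pools and 574, 545 and 615 in the RFP pools. In both genes library 2 of GFP High stood farthest from the rest, high for Kif2c and low for Kif14. Kif2c gave a log2 difference between GFP High and RFP of 0.14 (SE 0.11) and Kif14 one of -0.17 (SE 0.10). Without GFP High library 2 these were 0.02 and -0.08.

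The remaining spindle motors ranged from 40.8 RPKM for Kif20b, a motor of late cytokinesis, to near 0 for Kif2b. Kif11, the plus-end motor that pushes spindle poles apart, was at 111 ± 10.1 CPM in the GFP High pools, 111 ± 4.65 in the GFP Low pools and 116 ± 5.64 in the RFP pools (mean ± SD, n = 3). Its fitted log2 difference between GFP High and GFP Low was 0.00, with a 95% interval from -0.24 to 0.24. Kif15, which works beside Kif11 in mitotic spindles, was much lower at 5.44 to 9.60 CPM. Over the 9 libraries the chromosome motor Kif22 ranged from 108 to 138 CPM, Kif2a, which takes microtubule ends apart at the poles, from 142 to 171, and Kif20a, a motor of cytokinesis, from 82.9 to 105. Kifc1 ranged from 72.9 to 101 CPM, Kif18a, which dampens chromosome movement, from 43.8 to 57.5, and its relative Kif18b from 19.6 to 31.3. Kif2b had 5 counts in the 9 libraries together. Kifc5b was at 6.97, 18.9 and 19.01 CPM in the GFP High pools and had the highest coefficient of variation (46.3%) of the members at 10 CPM or more in that group.

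Among the transport kinesins, Kif17 had the highest level and was the member whose libraries lay above RFP in both GFP groups. Kif17 (chr4:138250435-138301967) encodes a homodimeric motor known for carrying cargo in dendrites and cilia and for a role in male germ cells. It was at 641, 693 and 551 CPM in the GFP High pools, 518, 512 and 587 in the GFP Low pools, and 458, 488 and 487 in the RFP pools. All 6 GFP libraries lay above all 3 RFP libraries, while GFP High and GFP Low overlapped through GFP High library 3 and GFP Low library 3. The fold of GFP High over RFP was 1.32 (log2 0.40, SE 0.10, 95% interval 0.18 to 0.62), with an unadjusted p of 0.00214 and an adjusted p of 0.997 by edgeR's quasi-likelihood test. This p ranked 13 among 14829 genes. Kif17 therefore did not pass the test over all genes, and its adjusted p over the other settings tried ranged down to 0.122, by DESeq2.

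The smaller Kif17 differences were less steady. GFP Low against RFP gave a log2 difference of 0.18 (SE 0.08, 95% interval 0.01 to 0.35) and GFP High against GFP Low one of 0.22 (SE 0.10, 95% interval 0.01 to 0.44). Their unadjusted p were 0.0416 and 0.0422, with adjusted p of 1.0 and 0.998 by edgeR's quasi-likelihood test. Leaving out GFP Low library 3 took the first to 0.11, and leaving out GFP High library 2 took the second to 0.14. The comparisons with RFP share the RFP libraries. The locus of Kif17 overlaps 10898 bases of Sh2d5 on the same strand, which was at 0.265 CPM.

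Kif3a, a subunit of the heterotrimeric kinesin-2 motor, was at 142, 94.9 and 129 CPM in the GFP High pools, 147, 134 and 117 in the GFP Low pools and 139, 141 and 127 in the RFP pools. GFP High library 2 was the lowest of the 9, and the groups overlapped. Its motor partner Kif3b stood lower per kilobase, at 4.36 RPKM against 36.3 for Kif3a. The subunit that links the motor to cargo, Kifap3, was at 0.507 RPKM. Kif3b was at 15.9, 20.98 and 24.1 CPM in the GFP High pools against 25.0 to 30.5 CPM in the other 6 libraries, with no overlap. Its log2 difference from RFP was -0.36 (SE 0.21) and from GFP Low -0.42 (SE 0.21).

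Kif16b (chr2:142617474-142901531), a motor that moves early endosomes, was at 164, 142 and 182 CPM in the GFP High pools, 213, 198 and 189 in the GFP Low pools, and 186, 189 and 198 in the RFP pools. All 3 GFP High libraries lay below the other 6. The log2 difference was -0.29 against GFP Low (SE 0.11, 95% interval -0.54 to -0.05) and -0.23 against RFP (SE 0.11, 95% interval -0.48 to 0.03). Without GFP High library 2 the difference from RFP was -0.14. The unadjusted p were 0.0237 and 0.0739, and the adjusted p by edgeR's quasi-likelihood test were 0.998 and 0.997. Kif13a, a motor of endosomes and mannose-6-phosphate receptor vesicles, was also lowest in GFP High, at 12.9 to 19.5 CPM against 19.6 to 27.2 in the other libraries, with an interval for the log2 difference from RFP of -0.92 to 0.14.

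The kinesin-1 heavy chains were led by Kif5c, at 134, 116 and 129 CPM in the GFP High pools, 129, 123 and 127 in the GFP Low pools and 143, 131 and 136 in the RFP pools. GFP Low lay below RFP without overlap, and GFP High overlapped both. The log2 difference of GFP Low from RFP was -0.11 (SE 0.08). The ubiquitous chain Kif5b was at 42.7 to 56.7 CPM, and the neuronal chain Kif5a had 44 counts in all libraries together. Of the light chains that tie kinesin-1 to cargo, Klc1 was at 15.9 RPKM, Klc2 at 6.51, Klc4 at 2.26 and Klc3 at 0.151. Kif5c per kilobase was at 18.2 RPKM.

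Kif1b, a kinesin-3 that carries mitochondria and vesicle precursors, was at 70.8, 68.8 and 90.4 CPM in the GFP High pools, 82.0, 85.3 and 70.1 in the GFP Low pools, and 90.9, 97.0 and 87.3 in the RFP pools. All 3 GFP Low libraries lay below RFP, and GFP High library 3 overlapped RFP. The log2 difference from RFP was -0.26 in the GFP High pools (SE 0.14) and -0.21 in the GFP Low pools (SE 0.10). Leaving out GFP High library 3 gave -0.40 for the first, and leaving out GFP Low library 3 gave -0.13 for the second. Kif1bp, the kinesin-binding protein, was at 46.6, 79.7 and 58.8 CPM in the GFP High pools and 70.4 to 76.5 CPM in the other 6 libraries, and its 3 GFP High libraries held both the lowest and the highest value. Of the other transport motors, the minus-end motor Kifc3 ranged from 40.4 to 84.6 CPM, with both ends in GFP High, and the kinesin-3 motor Kif1c from 11.6 to 23.1. Kif13b averaged 33.6 CPM, and Kif3c and Kifc2 had 213 and 54 counts in all libraries together.

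Cilium and centriole genes were led by Kif24, which acts at the centriole to hold back cilium growth. It was at 115, 117 and 112 CPM in the GFP High pools, 102, 112 and 112.5 in the GFP Low pools and 107, 102 and 115 in the RFP pools, and the groups overlapped. Kif9, a motor of motile cilia, was at 13.4, 17.9 and 13.8 CPM in the GFP High pools, 10.4, 10.4 and 10.5 in the GFP Low pools and 13.4, 11.1 and 11.5 in the RFP pools. GFP Low lay below every other library, while GFP High library 1 and RFP library 1 were level, so that the overlap of those 2 groups turns on the scaling. The log2 difference of GFP High from GFP Low was 0.53 (SE 0.24, 95% interval -0.02 to 1.08), with an adjusted p of 0.998 by edgeR's quasi-likelihood test. Kif27 was at 4.16 CPM, and Kif6, Kif7 and Kif19a had 21, 12 and 69 counts in all libraries together.

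In the remaining class, Kif21b, a kinesin-4 that limits microtubule growth, was at 45.3, 52.1 and 82.4 CPM in the GFP High pools, 67.5, 87.4 and 65.9 in the GFP Low pools, and 67.5, 66.5 and 75.9 in the RFP pools. Kif26b, an atypical kinesin of signalling, was at 25.5, 25.0 and 20.2 CPM in the GFP High pools, 16.7, 14.2 and 23.8 in the GFP Low pools and 18.99, 17.8 and 22.1 in the RFP pools. Both sets of groups overlapped. Kif21a stayed below 10 CPM, and Kif26a and Kif28 had 243 and 57 counts in all libraries together.

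Several members rested on few reads. Kif1a, Kif5a, Kif6, Kif7 and Kif2b were at 0 counts in all 3 GFP High libraries. Kif1a had 7, 18 and 0 counts in GFP Low and 2, 12 and 11 in the RFP pools, and Kif5a had 24, 0 and 1 and then 6, 0 and 13. A count of 0 allows up to 3 counts, or 0.108 to 0.155 CPM in these libraries, and no fold is given where both groups are that low. From 6 to 8 of the 42 members were at 0 in a GFP High library, 0 to 5 in a GFP Low library and 0 to 3 in an RFP library. Over all 30153 genes, 14408 to 17482 had at least 1 count in a GFP High library. In GFP Low libraries 19982 to 22022 did, and in RFP libraries 20792 to 21913, so the lower detection in GFP High was not particular to kinesins. Whether the smaller pools of GFP High bear on this was not tested. Kif28 overlaps Ahctf1 (168 CPM) on the same strand, so reads of the shared bases cannot be told apart. The strand setting of the counting is not stated, and the same then holds for the opposite-strand neighbours Ticrr (377 CPM) at Kif7, Cyhr1 (30.7 CPM) at Kifc2, Dimt1 (18.2 CPM) at Kif2a, Cdc23 at Kif20a and Mettl15 at Kif18a.

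Across the 3 comparisons no kinesin passed the threshold of 0.05 on edgeR's adjusted p. The counts were 0 of 34 tested members for GFP High against RFP (0.0135% of all genes tested passed), 0 of 35 for GFP Low against RFP (0.0197%) and 0 of 34 for GFP High against GFP Low (0.0%). DESeq2 and limma-voom called 0 members as well. At an unadjusted p under 0.05, 1 member passed for GFP High against RFP (Kif17, where 4.09% of genes passed), 1 for GFP Low against RFP (Kif17, 2.62%) and 2 for GFP High against GFP Low (Kif16b and Kif17, 3.77%). In the authors' deposited tables, 0 members had an adjusted p below 0.05.

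The intervals show how large a difference the data leave room for. For 28 of 34 members the 95% interval of GFP High against RFP lay within 1 log2 unit either way (82.4%, against 50.3% of all genes tested). The same held for 31 of 35 members for GFP Low against RFP (88.6%, against 65.7%) and for 28 of 34 for GFP High against GFP Low (82.4%, against 50.3%). Those members were mostly abundant, and precision rises with abundance. The median log2 difference over the members was -0.05, 0.01 and -0.04 in that order, and over all genes tested it was -0.01, 0.00 and -0.01. The spindle members gave medians of -0.04, 0.00 and -0.04, and the transport members -0.16, 0.03 and -0.09.

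**Figure D3:**
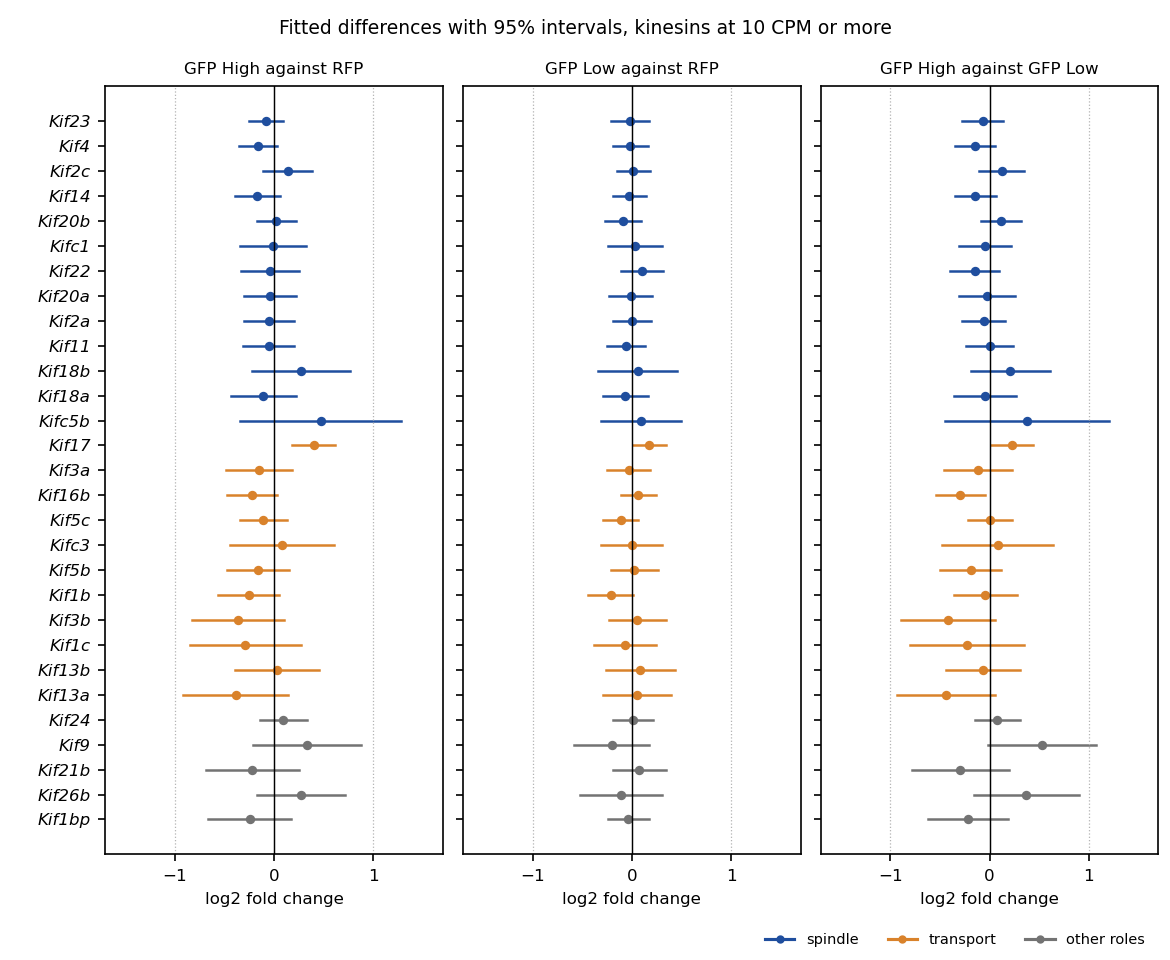
Fitted log2 fold changes (points) with 95% intervals (bars) for the 29 members at 10 CPM or more in the 3 comparisons, by role. Most intervals cross 0, and those of Kif17 lie above 0 in each panel, although its adjusted p does not pass 0.05.

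Replicates that did not overlap between groups were counted as well. For GFP High against RFP these were 6 of 34 members (17.6%, against 11.8% of all genes tested), with 2 higher, Kif17 and Kif9 (5.04% of all genes), and 4 lower, Kif13a, Kif16b, Kif3b and Kif4 (6.8%). The Kif9 call holds when these 6 libraries are scaled on their own, as here, and not over all 9. For GFP Low against RFP they were 5 of 35 (14.3%, against 7.68%). Of these 1 was higher, Kif17 (3.62% of all genes), and 4 were lower, Kif1b, Kif3c, Kif5c and Kif9 (4.07%). Kif3c rested on 5, 14 and 17 counts in GFP Low and 20, 14 and 32 in RFP, which overlap before scaling. Its nearest values, scaled over all 9 libraries, were 0.613 and 0.614 CPM. For GFP High against GFP Low the members without overlap were 4 of 34 (11.8%, against 11.5%). Of these 1 was higher, Kif9 (4.79% of all genes), and 3 were lower, Kif13a, Kif16b and Kif3b (6.7%). Kif17 was the member that lay apart from RFP in the same direction in both GFP groups, 1 of 34, where 1.48% of 14573 genes did so in either direction and 0.611% did so upward. Kif13a and Kif3b were named after their values were seen.

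**Figure D4:**
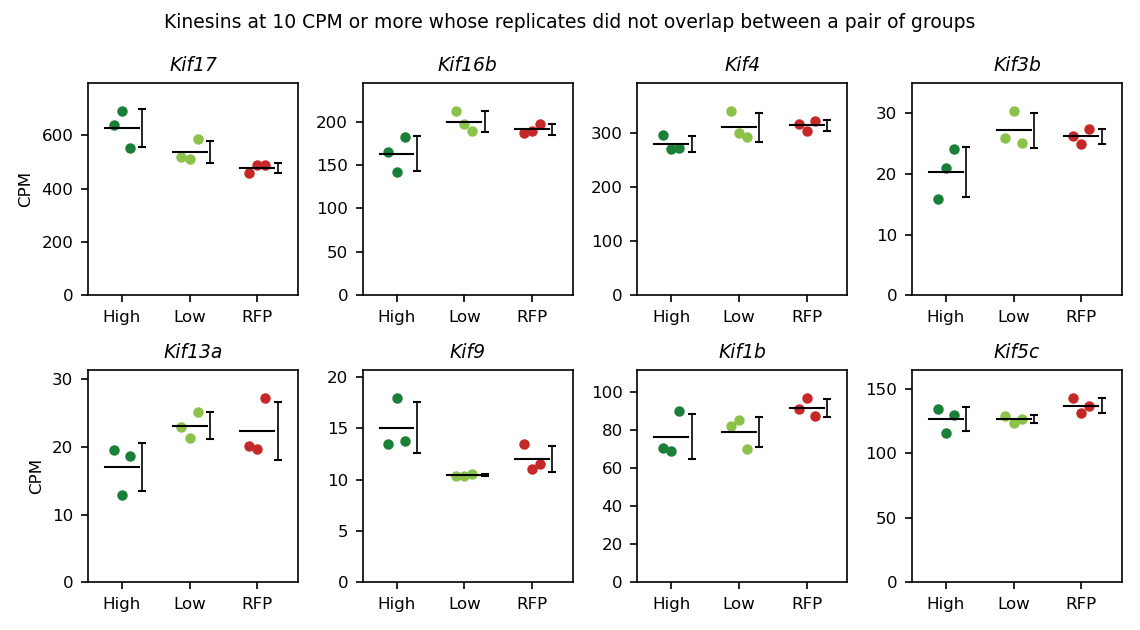
CPM in each library (points, scaled over all 9 libraries) with the group mean (line) and SD (bar, n = 3). Drawn are the members at 10 CPM or more whose replicates did not overlap between a pair of groups scaled on its own 6 libraries. Kif5b, apart only when scaled over all 9 libraries (GFP High 42.7 to 49.7 CPM, GFP Low 49.8 to 56.7), is not drawn. Kif17 steps down from GFP High (551 to 693 CPM) to RFP (458 to 488 CPM), and Kif16b, Kif3b and Kif13a are lowest in GFP High.

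The spread between replicates can be read from the coefficient of variation. Over the 29 members at 10 CPM or more, the median coefficient of variation was 11.5% in the GFP High pools, 8.55% in the GFP Low pools and 5.50% in the RFP pools. The same over 7710 genes at that level was 15.3%, 8.35% and 9.60%. Kif24 was the steadiest member in GFP High (2.31%) and Kif9 in the GFP Low pools (0.851%).

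Summed over each class, spindle transcripts outweighed transport transcripts in all 9 libraries. The spindle sum was 443 ± 8.35 RPKM in the GFP High pools, 454 ± 26.8 in the GFP Low pools and 458 ± 10.03 in the RFP pools (mean ± SD, n = 3). The transport sum was 239.8 ± 7.05, 230.3 ± 5.39 and 219 ± 2.83 RPKM in that order. The spindle share of the summed level was 64.3% to 65.5% in the GFP High pools, 64.7% to 67.9% in the GFP Low pools and 67.2% to 68.1% in the RFP pools, so GFP High and RFP did not overlap. No p is given for these sums.

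Kif17 made up much of the transport sum, 57.1% in the GFP High pools, 51.0% in the GFP Low pools and 47.7% in the RFP pools. Without it the transport sum was 103 ± 11.1 RPKM in the GFP High pools, 113 ± 4.09 in the GFP Low pools and 114 ± 0.917 in the RFP pools. The order of the 3 means then turned round, with all 3 GFP High libraries below all 3 RFP libraries. The spindle share without Kif17 was 81.2%, 80.1% and 80.0%, and GFP High (79.8% to 82.8%) then overlapped RFP (79.6% to 80.5%).

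**Figure D5:**
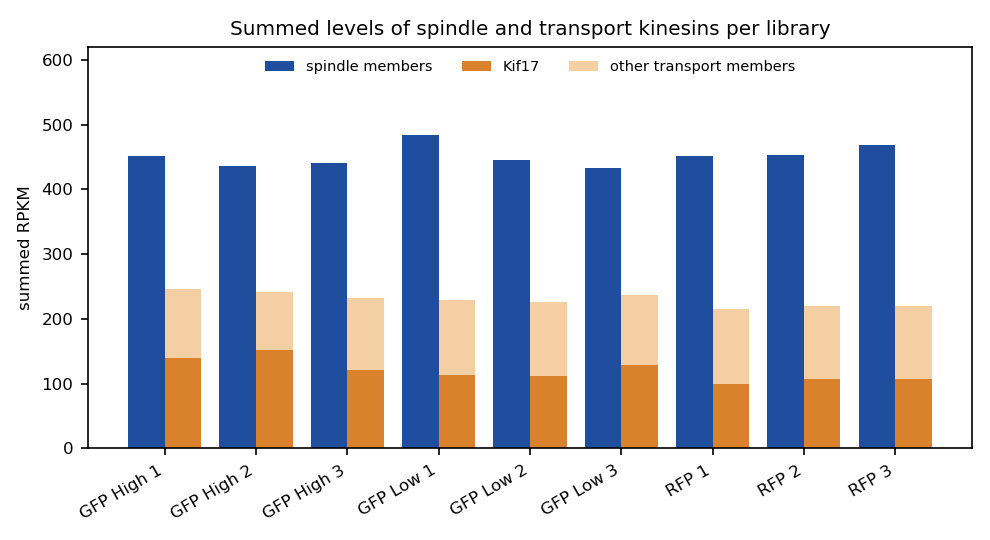
Summed RPKM per library for the spindle members (blue bars) and the transport members (stacked bars, Kif17 in dark and the others in light orange). Spindle sums lie between 433 and 484 RPKM in every library, and the Kif17 portion is smallest in RFP.

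Proteins that work with these motors gave no called differences either. Of 24 listed genes (Cenpe, kinesin subunits and adaptors, and spindle microtubule proteins), 23 were tested for GFP High against RFP and 22 in each other comparison, with 0 past the adjusted threshold by edgeR's quasi-likelihood test. At an unadjusted p under 0.05 there were 2 of 23, 0 of 22 and 2 of 22, where 4.09%, 2.62% and 3.77% of all genes tested passed, and 10 of 23, 11 of 22 and 7 of 22 had a log2 difference above 0 (49.3%, 48.9% and 49.4% of all genes tested). Those 2 were the same pair in both comparisons, Mapre1, which tracks growing microtubule ends, and Trak1, an adaptor of mitochondrial transport, both named after their values were seen. Mapre1 was at 422, 422 and 423 CPM in the GFP High pools and 453 to 556 CPM in the other 6 libraries. Cenpe, which carries chromosomes to the spindle equator, was at 808, 801 and 963 CPM in the GFP High pools, 948, 930.0 and 826 in the GFP Low pools and 1013, 890.0 and 922 in the RFP pools, and the groups overlapped.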

How the data were processed

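Poly-A RNA of the oocyte pools was sequenced as paired ends from random-hexamer cDNA, per the labels' protocols. The submitters' processing notes list fastp, HISAT2 2.0.5, featureCounts 1.5.0-p3, DESeq2 1.20.0 and mm10. The strand setting is not given in the sources used here. The authors deposited 3 tables, each with the raw read count per gene of 6 libraries, which all tests here start from. The deposited tables also hold a normalised signal, the authors' FPKM, a log2 fold change and a p-value, which entered no test here. The tables were joined by gene identifier, and a gene missing from a table was set to 0 (178 genes, 0 of them members). Each pair of groups was tested on its 6 libraries with edgeR 4.0.16 under R 4.3.3 (filterByExpr, TMM, glmQLFit, glmQLFTest, Benjamini-Hochberg over all genes tested, threshold 0.05). SEs were derived from the F statistic. Levels are TMM-scaled CPM over the 9 libraries, and RPKM divides CPM by the deposited gene length. The reads carry no molecular identifiers, so limits from counts cover counting error only. The labels do not say that replicates came from separate animals, so p-values measure the spread between these pools, which may be technical. DESeq2 1.42.0 and limma 3.58.1 were alternatives, with other scalings, no filter, a replicate block and each library left out. The scripts were tested on simulated data. Values in every library are given for the 4 highest spindle and the 4 highest transport genes by RPKM, the 2 highest of the cilium and of the other genes, the 3 smallest p of each comparison and any gene apart from RFP in both GFP groups. Further members were named after their values were seen. The members, roles and lists were chosen with earlier results of these data known. Gene coordinates are those of the tables, which 39 of the 42 members share with GENCODE M21 on GRCm38.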

Additional observations from a re-analysis of the deposited data

How the results depend on the processing

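The count of kinesins past the adjusted threshold was 0 in each of the 3 comparisons under all 13 alternatives. Same-numbered libraries correlated between -0.113 and 0.116 in their deviations from the group means. Of 6 libraries, 0, 3 and 4 correlated best with their own number (GFP High against RFP, GFP Low against RFP, GFP High against GFP Low). With 3 libraries per group, these values cannot settle whether replicate numbers mark pairs. With a replicate block, 0 kinesins passed in each comparison and 4, 3 and 0 of all genes did. The count of all genes called moved more, from 2, 3 and 0 to 16, 34 and 16 without a filter on low counts, 12, 10 and 4 by DESeq2 and 1, 1 and 0 by limma-voom. Of the 39 log2 differences of the named members, 27 kept their sign and 12 changed it in some setting, and the cause was not tested. Leaving out 1 library gave, for GFP High against GFP Low, -0.183 to 0.024 for Kif1b, -0.143 to 0.032 for Kif23, -0.25 to 0.03 for Kif3a and -0.049 to 0.059 for Kif5c. For GFP Low against RFP it gave -0.066 to 0.019 for Kif14, -0.07 to 0.146 for Kif21b, -0.118 to 0.051 for Kif23, -0.024 to 0.062 for Kif24, -0.351 to 0.046 for Kif26b, -0.016 to 0.044 for Kif2c, -0.113 to 0.049 for Kif3a and -0.085 to 0.026 for Kif4. The Kif5c difference between GFP High and GFP Low, 0.004, was -0.004 without the filter. The spindle share of the summed level in GFP High, GFP Low and RFP was 68.1%, 69.2% and 70.3% in CPM not divided by length. Without Kif2a and Kifc5b among the spindle genes it was 63.3% in GFP High and 66.2% in RFP. Without Kif17, an alternative chosen after seeing the data, it was 81.2%, 80.1% and 80.0%. Depth limits the 9 members with a mean below 1 CPM most, since each rests on few reads.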
